A study of Mus musculus with 4 samples.

Results

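The NR4A orphan receptors are the 3 nuclear receptors Nr4a1 (Nur77), Nr4a2 (Nurr1) and Nr4a3 (Nor1). They were followed in LSK cells, sorted from bone marrow as negative for lineage markers and positive for Sca1 and c-Kit, a gate enriched for blood stem cells and their multipotent offspring. The members were taken by gene symbol from all probe sets that the array annotation assigns to a single gene, which gave 3 genes with 1 probe set each, out of 22180 genes and 23521 such probe sets. No probe set assigned to several genes named any of them. The comparison was between 2 arrays of LSK cells from SRC-3 knockout (KO) mice and 2 arrays from wild-type (WT) mice. All mice were male and 8 weeks old, and the cells were sorted by flow cytometry after red cell lysis of flushed marrow. The sources used here do not give the strain, the deleted part of the gene, whether the deletion was confined to blood cells, or how many mice each sample pooled. The labels call the samples of a genotype biological replicates; where these did not come from separate mice, p-values measure only the spread between samples, which may be technical.

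NR4A proteins are nuclear receptors whose ligand pocket is filled by bulky side chains, so their activity follows mainly from how much of the protein is made. Their genes are immediate early genes, switched on within minutes by cAMP, calcium, growth factor and inflammatory signals through CREB, MEF2 and related factors. In mouse marrow, Nr4a1 and Nr4a3 together restrain the proliferation of stem cells and of myeloid progenitors, and mice that lack both develop acute myeloid leukemia. SRC-3, the product of Ncoa3, is a coactivator that nuclear receptors and other transcription factors recruit to their target genes.

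The promoter windows of the members are shown because all 3 genes had lower means in KO cells and because the cAMP response element (CRE), the binding site of CREB, is a known input to this family. Each window covers 250 bases before and 50 bases from the annotated transcript start, taken from RefSeq on build GRCm38.p6 and written 5′ to 3′ on the strand of the gene. The windows are chr15:101266596-101266895 on the plus strand for Nr4a1, chr2:57123954-57124253 on the minus strand for Nr4a2, and chr4:48045055-48045354 on the plus strand for Nr4a3. Capitals mark the CRE core TGACG, or CGTCA where it lies on the opposite strand.
Nr4a1: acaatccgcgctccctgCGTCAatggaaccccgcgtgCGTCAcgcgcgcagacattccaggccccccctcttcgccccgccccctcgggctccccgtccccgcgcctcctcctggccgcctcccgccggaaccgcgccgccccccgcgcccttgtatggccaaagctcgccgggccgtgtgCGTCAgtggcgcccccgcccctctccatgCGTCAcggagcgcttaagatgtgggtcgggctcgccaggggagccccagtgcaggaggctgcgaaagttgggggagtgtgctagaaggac
Nr4a2: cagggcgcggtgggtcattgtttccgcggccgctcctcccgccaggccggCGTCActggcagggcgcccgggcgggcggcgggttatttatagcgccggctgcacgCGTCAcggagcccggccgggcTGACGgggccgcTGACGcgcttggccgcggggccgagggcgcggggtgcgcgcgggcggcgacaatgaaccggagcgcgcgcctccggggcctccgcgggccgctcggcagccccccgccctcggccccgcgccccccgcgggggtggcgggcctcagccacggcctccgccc
Nr4a3: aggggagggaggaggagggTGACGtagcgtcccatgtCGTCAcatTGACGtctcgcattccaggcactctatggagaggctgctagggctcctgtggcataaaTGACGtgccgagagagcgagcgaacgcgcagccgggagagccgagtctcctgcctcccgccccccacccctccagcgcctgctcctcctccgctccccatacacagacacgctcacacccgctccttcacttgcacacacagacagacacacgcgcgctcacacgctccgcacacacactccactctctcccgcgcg

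Each of the 3 windows held 4 CRE cores, all upstream of the transcript start. In Nr4a1 they began 233, 213, 69 and 40 bases before the start, all on the opposite strand. In Nr4a2 they began 200, 144, 123 and 111 bases before the start, and in Nr4a3 231, 213, 205 and 147 bases before it. Among all 32851 windows of the same length, 20.8% held at least 1 core and 0.231% held at least 4, counting both strands and overlapping matches. The full palindrome TGACGTCA, which contains the core, was found in 1.79% of all windows and in none of the 3.

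Other motifs were sparse. The EGR site GCGGGGGCG matched once in Nr4a1, 60 bases before the start, where it shares no base with a CRE core, and was present in 2.91% of all windows. A MEF2 site was found in Nr4a2, 167 bases before the start, and in 3.19% of all windows. The AP-1 site TGACTCA (5.20% of windows), the CArG box of serum response factor (1.63%), the NR4A binding element AAAGGTCA (1.51%) and, on the gene's own strand, TATAAA (8.32%) were not matched in the 3 windows. The other motifs were searched on both strands. These are matches of letters, not measured binding.

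**Figure D1:**
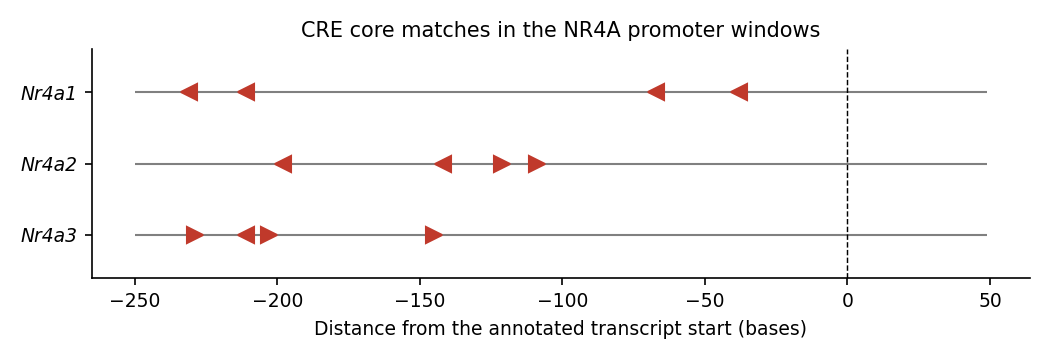
Positions of CRE core matches in the promoter windows of the 3 NR4A genes, against the distance in bases from the annotated transcript start (dashed line). Triangles pointing right are matches on the strand of the gene and triangles pointing left are matches on the opposite strand; each gene has 4, between 233 and 40 bases before the start.

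The labelled genotype was checked first. On the log2 scale of the deposited values, Ncoa3 read 5.35 and 5.09 in the KO arrays, against 7.76 and 7.05 in the WT arrays, a difference of -2.19 ± 0.27 (moderated SE, n = 2 each, limma adjusted p = 0.038). Kit, which encodes the gate marker c-Kit, was bright on all 4 arrays, at 9.34 to 10.3, and Ly6a, which encodes Sca1, was not analysed here. Cd34, which is not part of the gate described above, read 10.1 to 10.9. Over all genes, WT replicates 1 and 2 differed with an SD of 0.382, and the KO replicates with an SD of 0.279. Limma called 113 genes at an adjusted p under 0.05, 88 higher and 25 lower in KO, so that 0.113% of genes were called lower and 0.397% higher. That count moved to 1754 without WT replicate 1, 3002 without WT replicate 2 and 0 with KO replicate 1 or KO replicate 2 left out, where 1471 and 1910 genes passed p under 0.05 without adjustment.

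Nr4a3 had a lower mean in KO LSK cells that narrowly passed the threshold over all genes, a call that did not hold under every alternative given below. Nr4a2 and Nr4a1 had lower means that did not pass it. Nr4a3 (gene identifier 18124, probe set 17413945) read 5.56 and 5.33 on the KO arrays, against 6.82 and 6.78 on the WT arrays (log2). Its lowest WT array lay 1.22 above its highest KO array, whereas the KO arrays lay 0.24 apart and the WT arrays 0.04 apart. The difference was -1.36 ± 0.18 (SE, n = 2 each, limma adjusted p = 0.048), a level 61.0% lower in KO, with a 95% interval of -1.79 to -0.92. Nr4a3 encodes Nor1, which in mouse blood cells overlaps in function with Nur77.

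Nr4a2 (gene identifier 18227, probe set 17385374) read 6.66 and 6.20 on the KO arrays, against 7.77 and 7.78 on the WT arrays. The WT arrays lay 0.01 apart and both stood at least 1.10 above either KO array, while the KO arrays lay 0.47 apart. The difference of -1.34 ± 0.21 (SE, n = 2 each, 95% interval -1.85 to -0.84) was as large as that of Nr4a3 to within its error, and the limma adjusted p was 0.062. Nr4a2, best known for its role in midbrain dopamine neurons, has also been linked in mice to the quiescence of hematopoietic stem cells.

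Nr4a1 (gene identifier 15370, probe set 17315178) read 9.18 and 9.19 on the KO arrays, against 10.8 and 9.80 on the WT arrays. The KO arrays were nearly equal and both lay below the WT arrays, with 0.60 between the nearest arrays of the genotypes, but WT replicate 1 stood 1.05 above WT replicate 2. The difference was -1.14 ± 0.32 (SE, n = 2 each, 95% interval -1.91 to -0.36, limma adjusted p = 0.16). A gap between the WT arrays as large as that of Nr4a1 was seen in 301 genes, or 1.36% of those measured. Without WT replicate 1 the Nr4a1 difference was -0.61, and without WT replicate 2 it was -1.66; in both of these fits limma called all 3 members (adjusted p = 0.0079 to 0.049), but it also called 1754 and 3002 genes over the whole table, against 113 with all arrays. With either KO array left out, no gene of the whole table was called, and the 3 differences ran from -1.58 to -1.11.

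**Figure D2:**
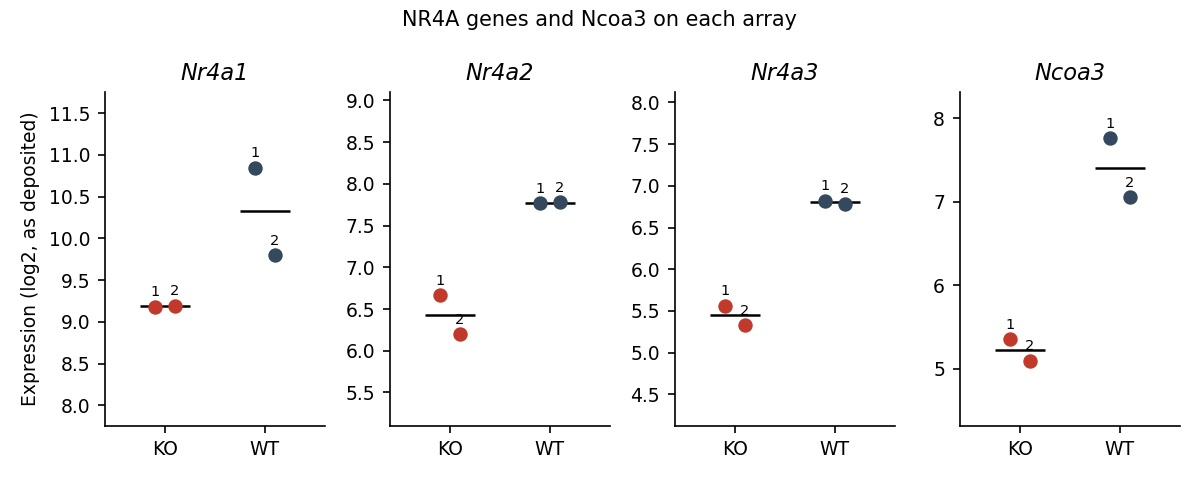
Deposited log2 values of Nr4a1, Nr4a2, Nr4a3 and Ncoa3 in 2 KO arrays (red, left) and 2 WT arrays (dark blue, right); points are single arrays labelled with their replicate number and bars are group means, on vertical axes of equal length. Both KO arrays lie below both WT arrays for each gene, and the WT arrays lie apart for Nr4a1 and Ncoa3 but not for Nr4a2 and Nr4a3.

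All 3 members had both KO arrays below both WT arrays, a pattern that 22.9% of all genes had. Of the 22180 genes, 32 had a more negative difference than Nr4a3, 34 than Nr4a2 and 78 than Nr4a1, and 0.69% of genes were lower by 1 or more on the log2 scale. The mean of the members' log2 values was 7.14 and 6.91 on the KO arrays, against 8.48 and 8.12 on the WT arrays, so the mean difference was -1.28. In bulk RNA, fewer cells that express these genes and less RNA in each cell cannot be told apart.

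Among themselves the members split by how they varied within a genotype. Nr4a2 and Nr4a3 had nearly the same profile: the log2 value of Nr4a2 minus that of Nr4a3 was 1.10 and 0.87 on the KO arrays and 0.95 and 0.995 on the WT arrays, so their KO minus WT differences differed by 0.01 (pooled SD 0.12). Nr4a1 departed from both, more between the WT arrays than between the KO arrays. Its value minus that of Nr4a2 was 2.52 and 2.999 on the KO arrays, against 3.08 and 2.02 on the WT arrays, and its difference was 0.21 less negative than that of Nr4a2 (pooled SD 0.58) and 0.22 less negative than that of Nr4a3 (pooled SD 0.52). The exact two-sided permutation test over arrays gave p = 1 and an adjusted p of 1 for each of the 3 pairs, but 2 arrays against 2 cannot give a p below 0.333, so these tests do not show that the members changed alike.

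Genes with the most similar profiles were ranked by the Euclidean distance between log2 values over the 4 arrays, each gene centred on its own mean, among 10486 named genes whose mean reached that of the median gene. This is a description over 4 arrays. For Nr4a2 the nearest gene was Nr4a3 itself (distance 0.17), followed by Zbtb10, Zbtb20, the microRNA gene Mir3097 and Fnbp1l at 0.22 to 0.27. For Nr4a3 the nearest were Zbtb10 (0.08), Rel (0.14), Zbtb20 (0.15), Nr4a2 (0.17) and Stk17b (0.21). Zbtb10 and Zbtb20 encode zinc finger transcription factors, Rel an NF-kB subunit and Stk17b a serine/threonine kinase of lymphocytes.

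Zbtb10 read 5.34 and 5.16 on the KO arrays, against 6.58 and 6.50 on the WT arrays (limma adjusted p = 0.0497). Rel read 8.69 and 8.64 on the KO arrays, against 10.01 and 9.93 on the WT arrays. For Nr4a1 the nearest genes were Kif21b, Zfhx2, Klf4, Mdga1 and Agap2, at distances of 0.15 to 0.24. All 5 shared its high value on WT replicate 1, which follows from their choice by profile. Klf4, an immediate early transcription factor, read 6.61 and 6.36 on the KO arrays, against 8.22 and 6.96 on the WT arrays (difference -1.11 ± 0.39, SE, adjusted p = 0.22). In that ranking Nr4a3 stood 631st and Nr4a2 945th from Nr4a1.

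Immediate early and cAMP response genes, which the same signals induce, had a lower mean in KO in 39 of 45 measured genes and a higher mean in 6. Of these genes limma called 0 at an adjusted p under 0.05. At an unadjusted p under 0.05, 24 were lower and 0 higher, against 10.5% of all genes higher and 6.93% lower. Among the brighter 11090 genes, 9.55% were lower at that p. Both KO arrays lay below both WT arrays in 31 of 45 (22.9% of all genes) and above both in 5 (25.1% of all genes). The median difference was -0.46, against -0.001 for all genes, and the range ran from -1.40 to 0.33. When any 1 of the 4 arrays was dropped, this median stayed between -0.55 and -0.39.

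By smallest p, the list was led by Dusp5, a nuclear phosphatase that inactivates ERK, at 8.36 and 8.41 on the KO arrays, against 9.69 and 9.28 on the WT arrays (difference -1.10 ± 0.18, SE, limma adjusted p = 0.068). Ptgs2, which encodes the prostaglandin synthase COX-2, read 6.21 and 5.97 on the KO arrays, against 7.01 and 7.05 on the WT arrays. Pde4b, a phosphodiesterase that breaks down cAMP, read 5.16 and 4.96 on the KO arrays, against 6.15 and 5.89 on the WT arrays. Both KO arrays lay below both WT arrays for these 3 genes and for those named next, a pattern that 22.9% of all genes had. These genes were named for the smallest p of the list, so the pattern is not separate from that choice. Egr1 and Egr2, zinc finger factors induced by ERK signals, differed by -1.11 ± 0.23 and -0.82 ± 0.19 (SE). Per1, a clock gene and CREB target, differed by -1.33 ± 0.29, the TGF-beta-induced Klf10 by -0.79 ± 0.19, and the AP-1 subunit Fosb by -0.97 ± 0.25.

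Like Nr4a1, this list had a higher mean in WT replicate 1 than in WT replicate 2, whereas Nr4a2 and Nr4a3 differed by 0.01 and 0.04 between the WT arrays. The mean deviation from each gene's own mean was -0.21 and -0.28 on the KO arrays, against 0.41 and 0.08 on the WT arrays, and 31 of 45 genes were higher in WT replicate 1 (median gap 0.26, against -0.02 over all genes). Summed on the linear scale, the list stood at 16609 and 16215 on the KO arrays, against 27147 and 19410 on the WT arrays. Many of these genes are also induced when cells are dissociated and sorted. The part of cell handling in the NR4A differences was not tested, and no handling times are given in the sources used here.

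**Figure D3:**
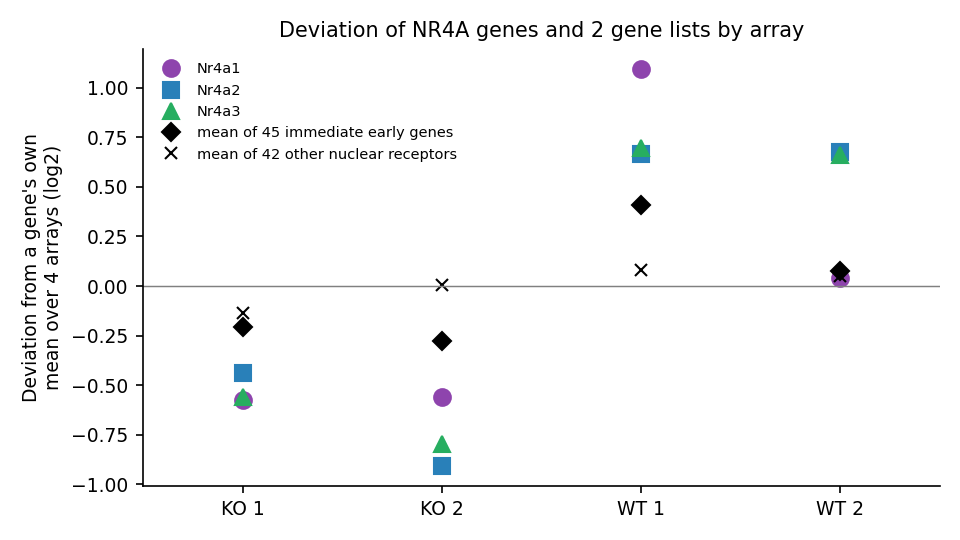
Deviation of each NR4A gene (coloured symbols), of the mean of 45 immediate early and cAMP response genes (diamonds) and of the mean of 42 other nuclear receptors (crosses) from the gene's own mean over 4 arrays, in log2 units, for each array. Nr4a1 and the immediate early list stand higher on WT replicate 1 than on WT replicate 2, whereas Nr4a2 and Nr4a3 stand at 0.66 to 0.70 on both.

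The differences of other genes were set beside the number of CRE cores in their promoter windows, as a description without a test. Of 16918 measured genes with a window, 62 had a window with at least 4 cores, among them the 3 NR4A genes. Their median difference was -0.05, against 9.5e-05 for all genes with a window. At an unadjusted p under 0.05, 7 of the 62 were lower, against 1134 of 16918. The 7 included all 3 NR4A genes, for which the windows were examined, so this count is not separate from the members. With at least 1 core the median was 0.02 over 4545 genes, of which 340 were lower at that p. Among the immediate early genes 34 had a window and 21 of these held at least 1 core, a share of 61.8%, against 26.9% of all genes with a window. The list was chosen to include cAMP response genes, so this share is not independent of that choice. The 21 had a median difference of -0.55, the 9 with at least 2 cores one of -0.46, and all 34 one of -0.48. The 9 are part of the 21 and the 21 part of the 34, so these medians do not compare genes with and without a core. None of the 34 held 4, and Dusp1, a MAP kinase phosphatase, held 3 with a difference of -0.24.

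The genes of the signalling route to the NR4A promoters were described in the same way. Of 32 listed kinases, CREB coactivators, MEF2 factors, class IIa histone deacetylases and calcineurin-NFAT genes, 26 were measured. Limma called 0 of these; at an unadjusted p under 0.05, 9 were lower and 0 higher (34.6% lower, against 6.93% of all genes), 22 had a lower mean in KO (50.2% of all genes did), and the median was -0.47. Nfatc2, a calcium-activated factor of lymphocytes, read 5.23 and 5.20 on the KO arrays, against 6.24 and 6.08 on the WT arrays (difference -0.94 ± 0.17, SE, adjusted p = 0.082). The MEF2 factors Mef2a, Mef2c and Mef2d, which hold and release class IIa histone deacetylases at the Nr4a1 promoter, differed by -0.75 ± 0.20, -0.62 ± 0.16 and -0.59 ± 0.16. The CREB coactivator Crtc2 differed by -0.59 ± 0.19, the histone deacetylase Hdac9 by -0.67 ± 0.22, the serum response factor partner Mrtfb by -0.64 ± 0.20 and the CREB kinase Rps6ka3 by -0.49 ± 0.17 (SE). This list, too, was higher in WT replicate 1, in 22 of 26 genes.

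Partners and coregulators of NR4A proteins included the other members of the SRC family. Of 18 measured genes limma called 1 lower, which was Ncoa3 itself, and at an unadjusted p under 0.05, 8 were lower and 0 higher (44.4% lower, against 6.93% of all genes), with a median of -0.29. The SRC-3 paralogs Ncoa2 (SRC-2) and Ncoa1 (SRC-1) did not stand higher in KO: Ncoa2 read 7.87 and 7.77 on the KO arrays, against 8.79 and 8.27 on the WT arrays (adjusted p = 0.17), and Ncoa1 read 6.13 and 5.82 on the KO arrays, against 6.68 and 6.31 on the WT arrays (adjusted p = 0.28). Crebbp, which encodes the acetyltransferase CBP, read 9.06 and 8.88 on the KO arrays, against 10.05 and 9.93 on the WT arrays (difference -1.02 ± 0.15, SE, adjusted p = 0.057). Its paralog Ep300 differed by -0.88 ± 0.20 and the Mediator subunit Med1 by -0.46 ± 0.18. Bcl2, a survival protein that NR4A1 can bind at mitochondria in human cancer cells, differed by -0.54 ± 0.13. Rxra, the retinoid X receptor with which NR4A1 and NR4A2 form dimers, differed by -0.47 ± 0.16, at a low level of 3.39 to 3.98 on the 4 arrays.

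Genes reported to depend on NR4A receptors in blood cells were counted next. The list gives no direction of dependence, so its count and median cannot show whether these genes followed the NR4A genes. Myc, Jun, Junb and Klf2 are also in the immediate early list. Of 28 measured genes limma called 0; at an unadjusted p under 0.05, 7 were lower and 3 higher, against 6.93% of all genes lower and 10.5% higher, and the median was -0.13. Lower means included the cell cycle inhibitor Cdkn1a (9.75 and 9.74 on the KO arrays, against 10.7 and 10.5 on the WT arrays), the transcription factor Runx1 (7.71 and 7.64 on the KO arrays, against 9.02 and 8.42 on the WT arrays) and Ikzf2, which encodes Helios (4.29 and 4.36 on the KO arrays, against 5.61 and 5.22 on the WT arrays). Their differences were -0.86 ± 0.13, -1.05 ± 0.23 and -1.10 ± 0.20 (SE, adjusted p = 0.061, 0.10 and 0.081). Tox, Klf2 and Cxcr4 differed by -0.68 ± 0.18, -0.50 ± 0.17 and -0.37 ± 0.13. Batf, an AP-1 family factor, and E2f1, a driver of S phase entry, had higher means in KO, by 0.80 ± 0.19 and 0.52 ± 0.17. Without WT replicate 2 the list's median was -0.27, and without KO replicate 1 it was -0.05.

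The rest of the nuclear receptor superfamily gave another view of the members. Of 42 other measured receptors limma called 0, 6 were lower and 0 higher at p under 0.05 without adjustment (14.3% lower, against 6.93% of all genes), and the median was -0.08. Their differences ran from -0.76 to 0.36, so that the difference of each NR4A gene lay outside the range of the other receptors. The levels were unlike, however. The other receptors had a median level of 3.97, against 7.10 for the NR4A genes and 4.32 for all genes, and folds of dim genes are understated. The lowest of the named receptors was Esr1, the estrogen receptor alpha gene, at 5.63 and 5.36 on the KO arrays, against 6.53 and 5.99 on the WT arrays. Rora and Nr1d2, receptors of the circadian clock, both differed by -0.65 (SE 0.17 and 0.18), Hnf4a by -0.61 ± 0.20 and Nr2c2 by -0.59 ± 0.20.

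**Figure D4:**
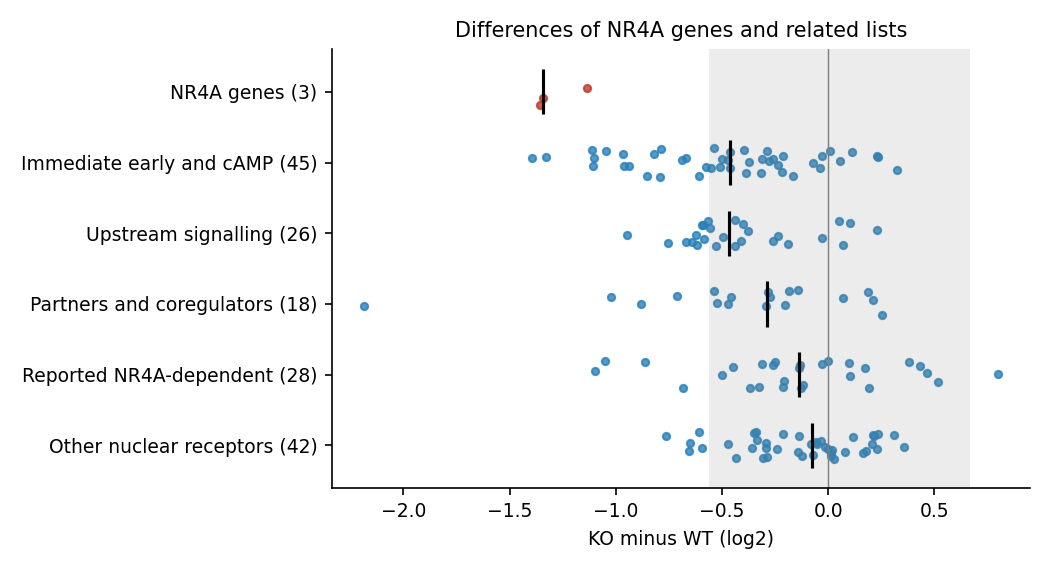
KO minus WT differences (log2) of the NR4A genes (red) and of 5 related lists (blue), with 1 point per gene, the median of each list as a black bar and the number of measured genes in brackets; points are spread vertically for legibility. The grey band holds the 5th to 95th percentile of all genes, -0.56 to 0.67, and all 3 NR4A genes lie to its left.

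Markers of the sorted cells and of other cells moved beside the members. Of 5 measured LSK markers only Kit belongs to the gate described above. Limma called 0 of the 5, and 3 were lower at an unadjusted p under 0.05 (6.93% of all genes were). Flt3, a receptor of multipotent progenitors, differed by -1.21 ± 0.27, Cd34 by -0.68 ± 0.13 and Kit by -0.60 ± 0.23 (SE). Cd48 and Slamf1 were at 0.14 and 0.18, with both KO arrays above both WT arrays. Of all genes 25.1% had that pattern and 22.9% had both KO arrays below both WT arrays. Of 5 measured erythroblast markers limma called Rhag, Ermap and Tspan33 higher, whereas 0.397% of all genes were called higher. Epb42 was at 0.68 with both KO arrays above both WT arrays (limma adjusted p = 0.13). Slc4a1 was at -0.96 with both KO arrays below both WT arrays (limma adjusted p = 0.13). The erythroblast list summed on the linear scale to 461 and 450 on the KO arrays, against 84.3 and 87.5 on the WT arrays. Monocyte and macrophage markers had 0 of 14 called by limma, 2 higher and 0 lower at p under 0.05 without adjustment (14.3% higher, against 10.5% of all genes), and 5 with a lower mean. They summed to 5376 and 5775 on the KO arrays, against 3488 and 3905 on the WT arrays, most of it from Ly6c2, a gene of classical monocytes. Cx3cr1 and Ace, genes of patrolling monocytes, in which Nr4a1 is high, were at -0.30 and -0.37. Neither passed the threshold (limma adjusted p = 0.47 and 0.44), and Ace was dim, at 2.81 to 3.53. Spn of the same list was at 0.18, and 9 of the 14 had a higher mean in KO. KO arrays lay below WT arrays for Cx3cr1 and Ace and above them for Spn.

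Among 12 neutrophil markers, 7 passed p under 0.05 without adjustment, all with higher means in KO (10.5% of all genes were higher at that p), and limma called 0 after adjustment. Of 11 mast cell and basophil markers Gzmb was called higher, and of 10 T and NK cell markers Klrk1, whereas 0.397% of all genes were called higher. Of the 11, 9 had a higher mean in KO, and at p under 0.05 without adjustment 3 were higher and 0 lower. Among the T and NK cell markers, 1 was higher and 1 lower at that p. Klrb1c of that list was at -0.85 (limma adjusted p = 0.10), and 5 of the 10 had lower means. None of 9 B lineage, 8 megakaryocyte and 11 stroma and endothelium markers was called by limma. At p under 0.05 without adjustment 3 B lineage markers were lower and 0 higher, and 3 stroma and endothelium markers were lower and 0 higher. Of the megakaryocyte markers 1 was lower and 1 higher (Pf4, at 1.27). Those lower were 33.3% of the B lineage, 27.3% of the stroma and endothelium and 12.5% of the megakaryocyte markers. Over all genes 6.93% were lower and 10.5% higher at that p. The part of cell composition in the NR4A differences was not tested.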

How the data were processed

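The values, deposited by the authors as 1 table, are log2 expression levels of 41345 probe sets on 4 arrays. Per the submitters' processing notes, RMA and Affymetrix Expression Console 1.2.1 are named, with settings, filters and build not given in the sources used here. The log2 scale was read from the values (0.375 to 12.8). RMA compresses dim probe sets, so folds of dim genes are understated. No scanner files, detection calls or scan dates were used, so no batch could be tested, and precision is limited by the number of arrays.

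Of the probe sets, 23521 had 1 gene symbol, 1814 had several and 16010 were not listed. By gene identifier, 23328 matched RefSeq GRCm38.p6. The probe set of highest mean stood for each gene, without a filter on level. KO minus WT was fitted in limma 3.58.1 (R 4.3.3) with an intensity trend, two-sided, with Benjamini-Hochberg adjustment over 22180 genes and a threshold of 0.05; errors are moderated standard errors. The code was tested on simulated data.

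The members and lists were chosen with earlier results of these data known. From each list the text names the members past the threshold and those of smallest p, up to 8, and for each NR4A gene the 5 genes of nearest profile; Dusp1 and the markers of other cells were named after their values were seen. Older symbols were updated through RefSeq synonyms. Alternatives were a replicate block, averaged probe sets per gene, each probe set on its own, a level filter, quantile normalization, median centring, no trend, robust moderation and leaving out each array. Counts of members under these settings were added after the data were seen.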

Additional observations from a re-analysis of the deposited data

How the results depend on the processing

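The differences of Nr4a1, Nr4a2 and Nr4a3 were below 0 under all 12 alternatives, and with all 4 arrays kept they ran from -1.29 to -1.09, -1.44 to -1.30 and -1.42 to -1.31. The calls were less stable, and the causes were not tested. With the replicate block, Nr4a3 was at -1.36 with an adjusted p of 0.053 and 0 members were called, while the whole table gave 111 calls; the labels do not say that a number marks a shared animal or day, and the deviations of same-numbered arrays correlated at 0.11 across genes. Nr4a2 passed when dim genes were filtered out (-1.34, adjusted p = 0.041) and after quantile normalization (-1.44, adjusted p = 0.042), with 2 members called in each. With all 4 arrays kept and no block, Nr4a3 passed throughout, with an adjusted p of up to 0.0495 when each probe set was tested on its own.

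With each array left out in turn, Nr4a1 ran from -1.66 to -0.61, Nr4a2 from -1.58 to -1.11 and Nr4a3 from -1.47 to -1.24, and the number of members called ran from 0 to 3. The number of immediate early and cAMP response genes lower at an unadjusted p under 0.05 ran from 4 to 32, and the median of genes reported to depend on NR4A from -0.27 to -0.046. The number of genes called ran from 0 to 3002. It was 289 (208 higher, 81 lower) with the level filter, which tests fewer genes, 205 (162 and 43) after median centring, and 153 (92 and 61) after quantile normalization, against 88 higher and 25 lower. The other alternatives changed no call of a member. A fit without an array leaves its genotype with a single array, which is assumed to vary like the other genotype.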
